A study of Homo sapiens with 9 samples.

Results

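The genes described here are the RNF genes, which take their name from the RING finger, a zinc-binding domain of ubiquitin ligases. Every gene of the guide table whose name begins with RNF and a digit was taken, except RNF2, RNF7, RNF8, RNF20, RNF31, RNF40, RNF43, RNF146, RNF168 and RNF169. That left 70 of the 80 RNF genes and of the 1117 genes in the table. The rule uses names and no measured value, but it was set with earlier results of these data known. 68 of the 70 carry their current RefSeq symbol, and RNF219 is now OBI1.

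The data are counts of single guide RNAs (sgRNAs) in the DNA of U251 cells, an established human glioma line, that stably carried a pooled guide library. Cells were exposed to temozolomide, an alkylating drug used against glioma, and the titles name 3 doses, 0, 200 and 1500 µM. The exposure of 72 h is that of the 200 and 1500 µM groups, and no time is recorded here for the 0 µM group. A dose has 3 libraries, which carry replicate numbers 1 to 3. The labels' treatment text gives the same doses in nM, so the unit is not settled, and µM is used here as the name of a group. All groups, the 0 µM group included, are the same guide-carrying cells. The nuclease, the vector and the time since infection are not stated in the labels, and no library from before treatment was analysed here. Nothing in the labels says whether the libraries of a dose came from separate cultures, so p-values reflect the scatter of these libraries alone, and that scatter may be technical. Guide counts are DNA counts, so markers of the cell type could not be examined. A guide's count follows the number of cells that carry it and does not measure expression of its target.

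Ubiquitin passes from an activating enzyme (E1) to a conjugating enzyme (E2), and a ligase (E3) then directs it to a substrate. A classical RING ligase holds the E2 and the substrate together, whereas a RING-between-RING ligase first takes the ubiquitin onto its own cysteine. The RNF name groups genes by this domain alone, so its members act at many sites, among them DNA breaks, ribosomes, the endoplasmic reticulum and antiviral sensors.

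Library totals ran from 1852340 to 2790563 counts. Levels are given as CPM (counts scaled to a common library size of 1000000), and a gene's level is the sum over its 10 guides. A count of 3, taken as the floor, equals 1.12 to 1.68 CPM, a bound for counting error only. Guides were tested where at least 3 libraries held at least 10 counts. Of the 700 RNF guides 677 (96.7%) passed, against a background of 92.5% of all guides, and 53 genes kept 10 tested guides, 12 kept 9, 4 kept 8 and RNF113A kept 7. The guide sequences were not analysed here.

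Without drug the RNF genes lay within the general range of the library. Their median level at 0 µM was 900.2 CPM, against 861 CPM for all 1117 genes. RNF112, a brain GTPase with a RING finger, was highest at 2054 ± 515 CPM (SD, n = 3), rank 10. RNF26, of the endoplasmic reticulum, followed at 1705 ± 1466 CPM, then RNF123, the ligase subunit KPC1, at 1577 ± 1249.8 CPM, RNF126 at 1485 ± 166 CPM and RNF121 at 1472 ± 639 CPM. The SDs of RNF26 and RNF123 are nearly as large as their means, so these neighbours do not differ in order beyond their spread. At the other end RNF4 had 67.9 ± 47.8 CPM, rank 1104 of 1117, followed by RNF113A at 275 ± 83.9 CPM, RNF175 at 318 ± 95.2 CPM, RNF135 at 394 ± 188 CPM and RNF133 at 456 ± 108 CPM. The 3 libraries of RNF4 did not overlap with those of RNF113A, whose own range overlaps with RNF175 and RNF135. Only 2 RNF genes lay in the lowest 10% of all genes and 6 in the highest 10%.

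**Figure D1:**
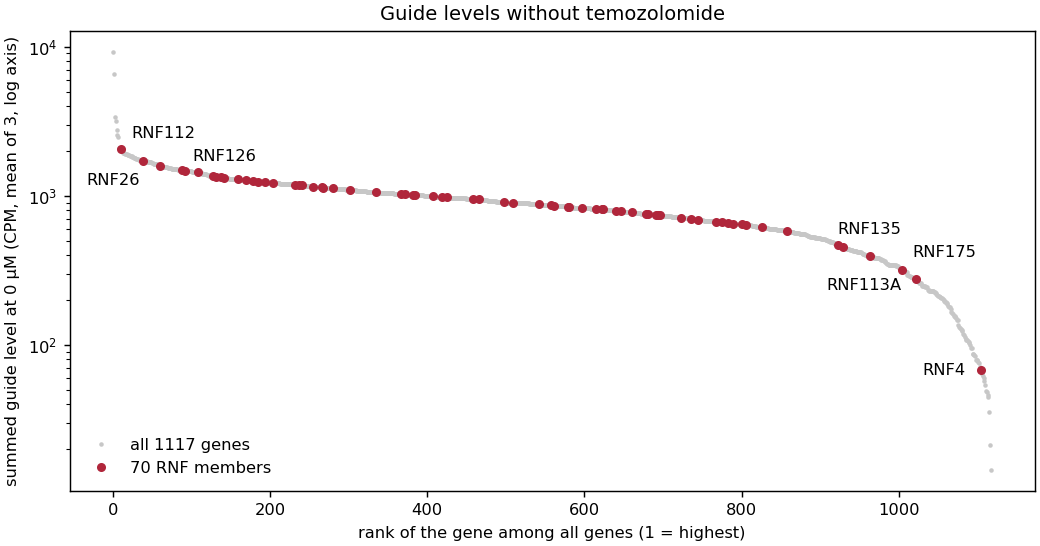
Each point is a gene, placed by its rank at 0 µM (x axis) and its summed guide level in CPM, the mean of 3 libraries, on a log axis (y axis). Grey points are all 1117 genes and red points are the 70 RNF genes; RNF112 lies at rank 10 and RNF4 at rank 1104.

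The RNF levels varied far more with the replicate number than with the dose. It took a median of 79.2% of the variation in a gene's log2 level (all genes 81.5%), and the dose took 6.11% (all genes 5.07%). RNF123 was the extreme, with 98.4% by number. Its levels were 877, 3019.6 and 834 CPM at 0 µM, 927, 2684 and 849 CPM at 200 µM, and 957, 2344 and 905 CPM at 1500 µM, so replicate 2 stood above the others at every dose. The guide RNF123.8 held 42.7, 51.7 and 40.3% of the gene's level in those replicate 2 libraries. RNF126 was the opposite, with 62.5% of its variation by dose. Of the tested RNF guides 41 were at least 4 times higher in all 3 libraries of 1 number than in the other 6, beside a background of 5.05% of all guides. In 7 the level was at least 4 times higher in 1 library than in the other 8 (background 0.706%). Of these 7, 6 stood high in replicate 1 of 0 µM, namely RNF122.4, RNF149.9, RNF182.9, RNF112.2, RNF217.7 and RNF121.4. Over all tested guides 62 of the 73 that met this rule stood high in that same library. The seventh, RNF139.7, stood high in replicate 2 of 0 µM and is also 1 of the 41. The 4-fold rule, with a minimum of 100 CPM, was set after the guide values were seen.

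No RNF gene and no RNF guide passed the test at any dose. In edgeR's quasi-likelihood test with Benjamini-Hochberg adjustment the count was 0 of 70 genes and 0 of 677 guides for 1500 against 0 µM, for 200 against 0 µM and for 1500 against 200 µM, as it was for all genes and all guides (background 0.0%). At an unadjusted p under 0.05 the same test gave 0 RNF genes in each comparison and 1, 1 and 2 RNF guides. Over all 1117 genes it gave 3, 0 and 1, and over all tested guides 21 of 10337, 14 of 10336 and 21 of 10337. DESeq2 likewise gave 0 RNF genes (background 0.0895, 0.0 and 0.0895%) and 0 RNF guides (background 0.0% in each) after adjustment. With the replicate number as a block, edgeR's unadjusted p was under 0.05 for 6 RNF genes at 1500 against 0 µM (background 6.62%), 8 at 200 against 0 µM (background 5.37%) and 3 at 1500 against 200 µM (background 6.62%). Among guides these counts were 21 (background 2.61%), 15 (background 2.23%) and 7 (background 1.95%). None remained after adjustment in edgeR. DESeq2 with the block called 0 RNF genes in each comparison (background 0.269, 0.0895 and 2.15%). It called 0 RNF guides in both comparisons with 0 µM (background 0.058% in each) and 1, RNF121.10, at 1500 against 200 µM (background 0.416%). As shares of the RNF genes the counts with the block are 8.57, 11.4 and 4.29%, and as shares of the RNF guides 3.10, 2.22 and 1.03%. The share of genes lay furthest above the background at 200 against 0 µM, and whether it differs from it was not tested.

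The median log2 fold change of the 70 genes was −0.04 at 1500 against 0 µM, −0.03 at 200 against 0 µM and −0.02 at 1500 against 200 µM. Over all genes it was −0.03, −0.03 and −0.01. For 1500 against 0 µM 65 of the 70 lay within 0.5 of 0 on the log2 scale (92.9%, all genes 94.0%), and RNF149 alone lay beyond 1. The 2 comparisons with 0 µM share the same control libraries, so their values are set side by side and are not independent. The comparison of 1500 against 200 µM likewise shares libraries with each of them.

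**Figure D2:**
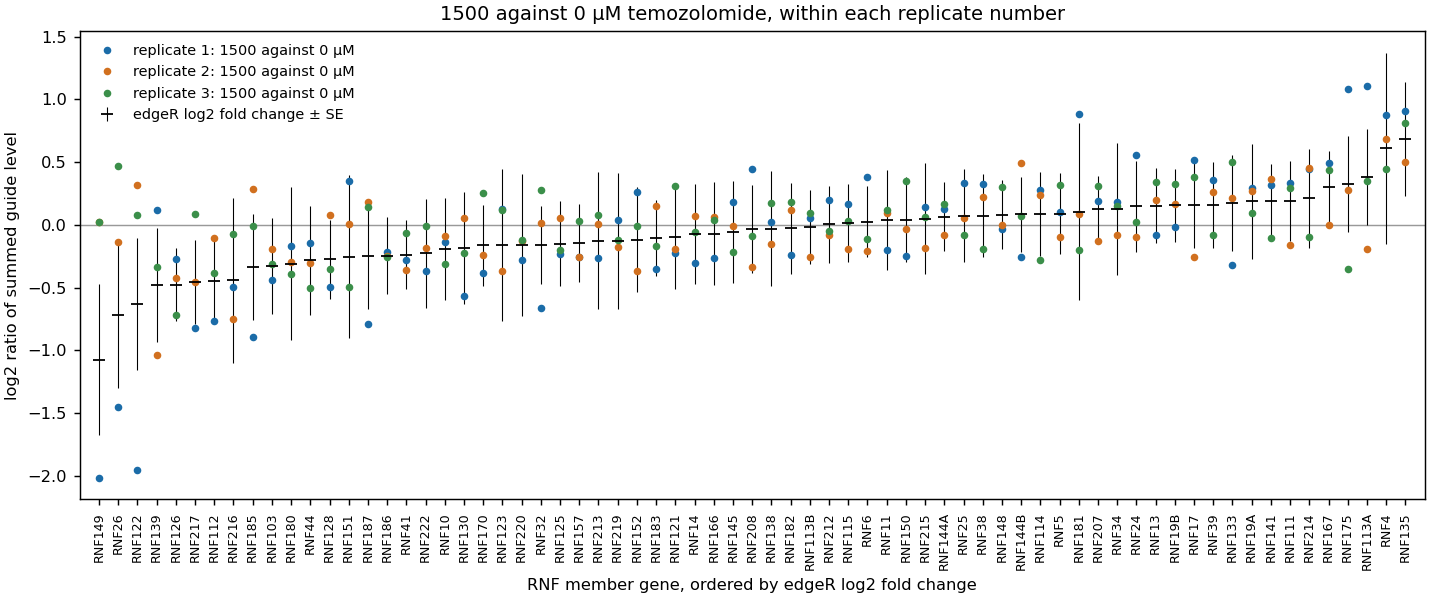
Log2 ratio of the summed guide level at 1500 µM to that at 0 µM (y axis) for 69 of the 70 RNF genes (x axis, ordered by edgeR's log2 fold change). Coloured points are the 3 same-numbered pairs of libraries and black ticks with bars are edgeR's log2 fold change ± SE; RNF149 is lowest at −1.08 with replicate 1 alone far below 0, and RNF135 is highest at 0.69 with all 3 points above 0.

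Direction was also counted within same-numbered pairs of libraries. At 1500 against 0 µM 3 RNF genes were higher in all 3 pairs (background 13.9%) and 11 were lower in all 3 (background 10.6%). At 200 against 0 µM 11 were higher (background 16.8%) and 9 lower (background 12.6%). At 1500 against 200 µM 8 were higher (background 12.7%) and 10 lower (background 15.2%). These counts depend on the scaling, which was chosen after a first set of results had been seen. They use TMM (trimmed mean of M-values) factors computed from gene sums. On the scale used first, with TMM factors computed from guides, the members were 2 higher and 25 lower at 1500 against 0 µM (all genes 6.36% and 29.9%), 5 and 22 at 200 against 0 µM (6.18% and 30.9%), and 7 and 11 at 1500 against 200 µM (12.1% and 15.8%). With library totals alone they were 3 and 19 (6.0% and 23.5%), 13 and 8 (19.9% and 8.68%), and 1 and 20 (2.95% and 32.8%). The median pair ratio over all genes was 0.03, −0.01 and 0.02 at 1500 against 0 µM on the gene-sum scale, −0.14, −0.11 and −0.08 on the first scale, and 0.03, −0.24 and −0.04 with library totals. On the gene-sum scale more RNF genes were lower than higher at 1500 against 0 µM, whereas more of all genes were higher than lower, and this difference was not tested. The genes named below follow the gene-sum scale. The first scale would have named RNF149, RNF139 and RNF217 in place of RNF216, RNF103 and RNF180 at 1500 against 0 µM and would not have named RNF19A there, and at 200 against 0 µM it would have named RNF214 and RNF139 in place of RNF4 and RNF125.

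A stricter count asked for no overlap between the 3 libraries of each dose. Between 1500 and 0 µM 1 RNF gene, RNF126, lay wholly lower (background 0.895%) and 0 lay wholly higher (background 1.43%). At 200 against 0 µM the counts were 0 higher (background 1.43%) and 0 lower (background 0.537%), and at 1500 against 200 µM 0 higher (background 0.537%) and 0 lower (background 0.358%).

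RNF126 is a quality-control ligase that works with the chaperone BAG6 on proteins that failed to reach their membrane. Its levels were 1300.1, 1534 and 1621 CPM at 0 µM, 898, 1346 and 1075 CPM at 200 µM, and 1079, 1141 and 983 CPM at 1500 µM. Every 1500 µM library lay below every 0 µM library, while replicate 2 at 200 µM lay inside the 0 µM range. The log2 fold change was −0.48 ± 0.29 (SE) at 1500 µM and −0.44 ± 0.31 at 200 µM, and neither passed edgeR's quasi-likelihood test with Benjamini-Hochberg adjustment (adjusted p = 0.9996 and 0.998). With the replicate block the values were −0.47 ± 0.16 and −0.46 ± 0.14 (edgeR adjusted p = 0.556 and 0.811). Of its 10 guides 9 had a negative log2 fold change at 1500 µM, with a median of −0.54, and 3 were lower in all 3 pairs. Its most abundant guide, RNF126.9, had 363, 441 and 720.4 CPM at 0 µM, 283, 354 and 436 CPM at 200 µM, and 307, 255 and 339.8 CPM at 1500 µM. RNF115, its BAG6-linked relative, had a log2 fold change of 0.02 ± 0.31 at 1500 µM and −0.14 ± 0.29 at 200 µM.

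RNF135, known as Riplet, modifies the viral RNA sensor RIG-I. Its levels were 213, 588 and 381 CPM at 0 µM, 306, 635 and 586 CPM at 200 µM, and 399, 833 and 669 CPM at 1500 µM. In each number the level at 1500 µM was above that at 200 µM, and that at 200 µM above that at 0 µM, but the spread between numbers made the doses overlap. The log2 ratios of the 3 pairs were 0.90, 0.50 and 0.81 at 1500 against 0 µM and 0.52, 0.11 and 0.62 at 200 against 0 µM. The log2 fold change at 1500 against 0 µM was 0.69 ± 0.45, and 0.74 ± 0.19 with the replicate block. It did not pass in edgeR's quasi-likelihood test with Benjamini-Hochberg adjustment (adjusted p = 0.9996, with the block 0.307), nor in DESeq2 with the block (adjusted p = 0.0837). All 10 of its guides had a positive log2 fold change, and 5 were higher in all 3 pairs. For genes named by their sum, as here, guides that share its direction are not separate support. The log2 fold change at 1500 against 0 µM moved to 0.39 without replicate 1 of 0 µM, 0.43 without replicate 2 of 1500 µM and 1.07 without replicate 2 of 0 µM. On leaving out 1 library it ran from 0.068 to 0.77 at 200 against 0 µM and from 0.051 to 0.57 at 1500 against 200 µM.

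**Figure D3:**
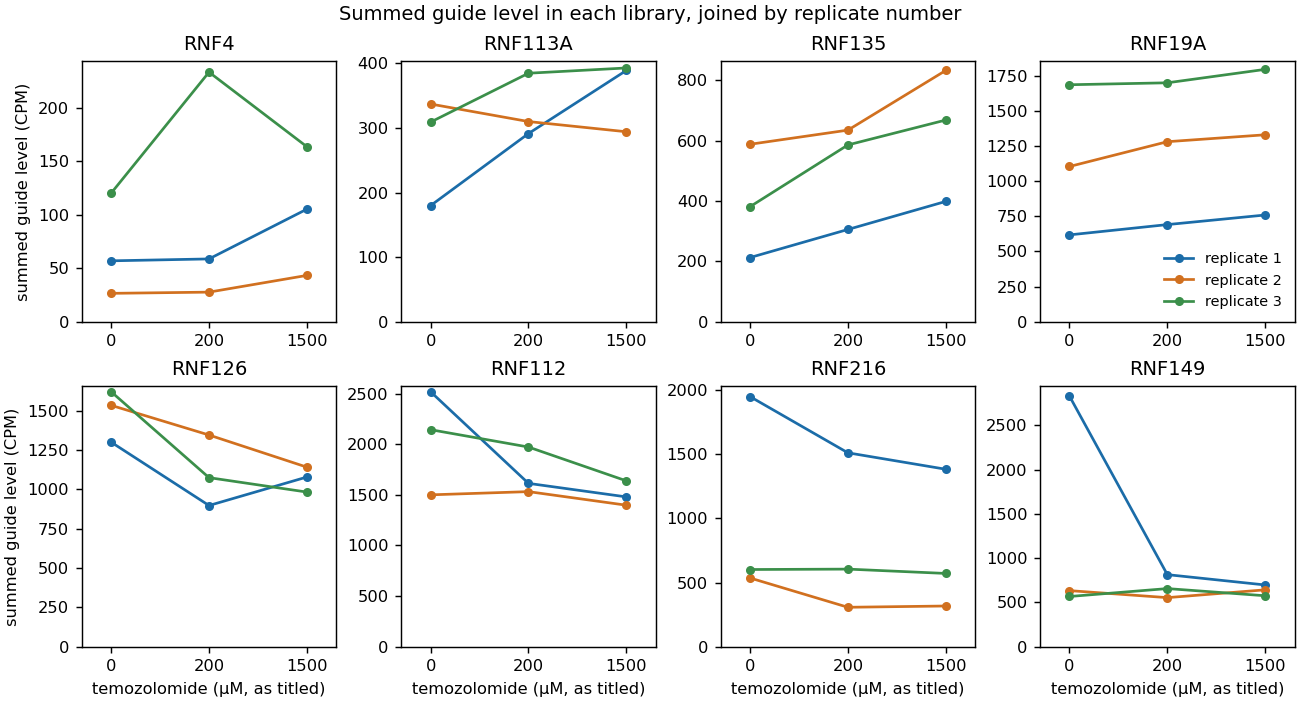
Summed guide level in CPM (y axis, from 0, a separate scale in each panel) at 0, 200 and 1500 µM (x axis) for 8 RNF genes, with points joined by replicate number. RNF126 libraries at 1500 µM lie below those at 0 µM, RNF135 lines climb in each number while their ranges overlap, and RNF149 is set apart by replicate 1 at 0 µM.

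The other innate immune ligases had smaller log2 fold changes at 1500 µM. RNF125, which marks RIG-I for destruction, had 1541, 838 and 1183 CPM at 0 µM, 1113, 814 and 930.5 CPM at 200 µM, and 1308, 872 and 1030.1 CPM at 1500 µM. It was lower in all 3 pairs at 200 against 0 µM (log2 fold change −0.34 ± 0.33) and higher in all 3 at 1500 against 200 µM (0.18 ± 0.28), and its dose ranges overlapped. Both comparisons use the same 200 µM libraries, so these directions are not independent. Without replicate 1 of 0 µM the first value moved to −0.089, and without replicate 1 of 1500 µM the other moved to 0.0042. RNF114 had 848, 545 and 826 CPM at 0 µM, 1161, 595 and 662 CPM at 200 µM, and 1029, 644 and 680.1 CPM at 1500 µM, with a log2 fold change of 0.08 ± 0.33 at 1500 µM and mixed pairs. RNF213, a very large ligase with an ATPase motor and a susceptibility gene for moyamoya disease, had −0.13 ± 0.55. Of the 5 genes of this group 0 passed, and their median log2 fold change was −0.13 at 1500 µM, −0.02 at 200 µM and −0.03 at 1500 against 200 µM.

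Among the ligases tied to SUMO and to DNA repair, RNF4 recognises chains of the ubiquitin-like protein SUMO and acts at DNA breaks. Its guides were scarce in every library, and its levels were 57.0, 26.6 and 120.2 CPM at 0 µM, 58.7, 27.7 and 233 CPM at 200 µM, and 105, 43.3 and 164 CPM at 1500 µM. Of its 90 guide counts 43 were 0 (47.8%), the highest share of any RNF gene, against 8.76% for all RNF guides and 12.4% for all guides. RNF4.6 was at 0 in all 9 libraries, as were 148 guides of the table. RNF4.5, the most abundant, had only 54, 39 and 47 counts at 0 µM, 41, 9 and 188 counts at 200 µM, and 43, 43 and 49 counts at 1500 µM. RNF4 lay higher in all 3 pairs at 1500 against 0 µM (0.87, 0.69 and 0.44) and at 200 against 0 µM (0.04, 0.06 and 0.95), though the ranges overlapped. Its log2 fold changes of 0.61 ± 0.76 and 0.64 ± 0.92 have SEs larger than the values. The first ran from 0.12 to 1.32 on leaving out 1 library, lowest without replicate 3 of 1500 µM and highest without replicate 3 of 0 µM. Without replicate 3 of 200 µM the latter turned to −0.65.

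RNF111, or Arkadia, also reads SUMO and promotes TGF-beta signalling. Its levels were 881, 719 and 885 CPM at 0 µM, 1396, 884 and 1009 CPM at 200 µM, and 1108, 644 and 1082 CPM at 1500 µM. It was higher in all 3 pairs at 200 against 0 µM, with a log2 fold change of 0.38 ± 0.30 (with the block 0.36 ± 0.14, edgeR adjusted p = 0.811), and all 10 guides had a positive value. For 1500 against 0 µM it was 0.19 ± 0.32 with mixed pairs. RNF138, which helps to trim DNA ends for repair, had 949, 1831 and 665 CPM at 0 µM, 928, 1393 and 617 CPM at 200 µM, and 965, 1646 and 751 CPM at 1500 µM. Replicate 2 was highest at every dose, and the dose ranges overlapped. Its log2 fold change was −0.03 ± 0.46 at 1500 µM, −0.25 ± 0.45 at 200 µM and 0.21 ± 0.40 at 1500 against 200 µM, and the last turned to −0.19 without replicate 2 of 1500 µM and to −0.039 without replicate 3 of 200 µM. RNF166, which shares its zinc finger layout with RNF114, RNF125 and RNF138, had −0.07 ± 0.41 at 1500 µM.

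The 7 RING-between-RING ligases had a median log2 fold change of 0.06 at 1500 µM, 0.01 at 200 µM and 0.04 at 1500 against 200 µM, and 0 passed. RNF19A, known as Dorfin, had 618, 1105 and 1687 CPM at 0 µM, 691, 1281 and 1700.6 CPM at 200 µM, and 759.7, 1331 and 1796 CPM at 1500 µM. It was higher in all 3 pairs at 1500 against 0 µM, by log2 ratios of 0.30, 0.27 and 0.09, yet its numbers differed from each other far more than its doses. Its log2 fold change of 0.19 ± 0.46 turned to −0.11 without replicate 1 of 0 µM and to −0.13 without replicate 3 of 1500 µM. RNF216, known as Triad3, had 1947, 535 and 601 CPM at 0 µM, 1509.8, 307 and 604 CPM at 200 µM, and 1382, 317 and 571 CPM at 1500 µM. All of its pairs were lower at 1500 against 0 µM (−0.49, −0.75 and −0.08), 10 of 10 guides had a negative log2 fold change, and the gene's was −0.44 ± 0.66. It turned to 0.42 without replicate 1 of 0 µM. The guide RNF216.7 held 72.0% of the gene's level in that library. In replicate 1 of 200 and 1500 µM it held 67.1 and 67.4%. Without this guide the pair ratios at 1500 against 0 µM were −0.27, −0.76 and −0.16. RNF217 had 1357, 1149 and 668 CPM at 0 µM, 777, 972 and 599.6 CPM at 200 µM, and 767, 835 and 710.2 CPM at 1500 µM. It was lower in all 3 pairs at 200 against 0 µM (−0.80, −0.24 and −0.16), and without RNF217.7, which held 49.9% of the level in replicate 1 of 0 µM, the ratios were −0.12, −0.23 and −0.12. RNF14, RNF19B and RNF144A had log2 fold changes of −0.07, 0.15 and 0.06 at 1500 µM.

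The 8 protease-associated transmembrane ligases, which sit in endosomes and other membranes, had medians of 0.06 at 1500 µM, −0.002 at 200 µM and 0.005 at 1500 against 200 µM, and 0 passed. RNF149 had the most negative log2 fold change of the 70 genes, −1.08 ± 0.60 at 1500 µM and −1.02 ± 0.62 at 200 µM. Its levels were 2830.4, 634 and 567 CPM at 0 µM, 814, 554 and 657 CPM at 200 µM, and 698, 643 and 576 CPM at 1500 µM. Replicate 1 of 0 µM stood alone, and the other 8 libraries lay between 554 and 814 CPM. The guide RNF149.9 had 1889, 53.6 and 25.8 CPM at 0 µM, 282, 77.3 and 62.5 CPM at 200 µM, and 207, 72.1 and 81.4 CPM at 1500 µM, and it held 66.8% of the gene's level in that 1 library. Without this guide the pair ratios at 1500 against 0 µM were −0.94, −0.02 and −0.13, with replicate 1 still the lowest. Without replicate 1 of 0 µM the log2 fold change turned to 0.092 at 1500 µM and 0.16 at 200 µM. RNF133, one of the scarcer genes, had 0.17 ± 0.38 at 1500 µM. RNF13, RNF128, known as GRAIL, and RNF130 had 0.15, −0.27 and −0.18.

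The 15 ligases of the endoplasmic reticulum and other membranes had a median log2 fold change of −0.17 at 1500 µM, −0.07 at 200 µM and −0.07 at 1500 against 200 µM. For 1500 against 0 µM 13 of the 15 were negative and 2 positive, where 44.8% of all genes were positive. In all 3 pairs 3 of the 15 were lower (background 10.6%) and 0 higher (background 13.9%), and 0 passed. Whether the group differs from all genes was not tested. For several of these genes 1 guide held most of the gene's level in 1 library of 0 µM. RNF26 had 3372, 1123 and 619 CPM at 0 µM, 1433, 1146 and 690.5 CPM at 200 µM, and 1229, 1019.5 and 855 CPM at 1500 µM, and RNF26.10 held 86.3% of the level in replicate 1 of 0 µM. In replicate 1 of 200 and 1500 µM RNF26.10 still held 60.7 and 47.5%. Without that guide the gene's pair ratios at 1500 against 0 µM were 0.48, −0.24 and 0.31, in place of −1.46, −0.14 and 0.47. RNF122 had 1930.1, 507 and 1113 CPM at 0 µM, 759, 570.5 and 1099 CPM at 200 µM, and 497, 632 and 1173 CPM at 1500 µM, and RNF122.4 held 74.5% in the same library. Without that guide its ratios were −0.19, 0.33 and −0.01. RNF139, or TRC8, a ligase that degrades membrane proteins, had 1144, 2105 and 727 CPM at 0 µM, 1156, 1013 and 514 CPM at 200 µM, and 1243, 1023 and 577 CPM at 1500 µM. There RNF139.7 held 65.5% of the level in replicate 2 of 0 µM. In replicate 2 of 200 and 1500 µM it held 30.2 and 29.8%. Without RNF139.7 the ratios at 1500 against 0 µM were 0.12, −0.02 and −0.33 in place of 0.12, −1.04 and −0.33.

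RNF103 had 1186, 889.9 and 1783 CPM at 0 µM, 809, 1007 and 1665 CPM at 200 µM, and 872, 779 and 1437 CPM at 1500 µM. It was lower in all 3 pairs at 1500 against 0 µM, its ranges overlapped, and its log2 fold change was −0.32 ± 0.38 (−0.32 ± 0.15 with the block). That value moved to −0.012 without replicate 3 of 0 µM and to −0.65 without replicate 3 of 1500 µM. RNF180 had 328, 1425 and 959 CPM at 0 µM, 344, 1489 and 847 CPM at 200 µM, and 292, 1163 and 732 CPM at 1500 µM. Its replicate 1 was far below the others at every dose. It was lower in all 3 pairs at 1500 against 0 µM (−0.17, −0.29 and −0.39) and at 1500 against 200 µM (−0.24, −0.36 and −0.21). The first log2 fold change, −0.31 ± 0.61, turned to 0.16 without replicate 2 of 0 µM and to 0.069 without replicate 1 of 1500 µM, and the other, −0.29 ± 0.61, to 0.29 without replicate 2 of 200 µM and 0.093 without replicate 1 of 1500 µM. RNF5 and RNF185, paralogs that remove misfolded proteins from the endoplasmic reticulum, had 0.09 ± 0.32 and −0.34 ± 0.42 at 1500 µM. RNF145, a sterol-responsive ligase, had −0.05 ± 0.41.

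RNF121, a membrane ligase, supplied the 1 guide that DESeq2 called. RNF121.10 had 68.1, 56.1 and 94.5 CPM at 0 µM, 54.6, 35.5 and 33.4 CPM at 200 µM, and 136, 98.5 and 121.1 CPM at 1500 µM. Every 1500 µM value lay above every 0 and 200 µM value. At 1500 against 200 µM its log2 fold change was 1.53 ± 0.31 (DESeq2 with the block, adjusted p = 0.00333), while edgeR gave 1.53 ± 0.60 (adjusted p = 0.999772) and, with the block, 1.55 ± 0.39 (adjusted p = 0.999572). Against 0 µM it was 0.57 ± 0.59. The gene as a whole had 2130.0, 1431 and 854 CPM at 0 µM, 1955, 1346 and 989 CPM at 200 µM, and 1821, 1254 and 1059 CPM at 1500 µM, with a log2 fold change of −0.04 ± 0.35 at 1500 against 200 µM and 3 of 9 tested guides positive. A first DESeq2 pass, whose filter was set for a threshold of 0.1, had also called RNF112.2 at 200 against 0 µM (adjusted p = 0.0475). With the filter set for the threshold used, 0.05, its adjusted p was 0.16.

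RNF112 had 2518, 1500.0 and 2143 CPM at 0 µM, 1613, 1532 and 1972 CPM at 200 µM, and 1479.6, 1398 and 1638 CPM at 1500 µM. It was lower in all 3 pairs at 1500 against 0 µM (−0.77, −0.10 and −0.39), with overlapping ranges and a log2 fold change of −0.45 ± 0.34 (−0.42 ± 0.17 with the block, edgeR adjusted p = 0.695). The guide RNF112.2 held 45.4% of the level in replicate 1 of 0 µM. Without it the 3 ratios were −0.19, −0.11 and −0.40, all still below 0.

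Ligases of the ribosome were RNF10, which modifies the small subunit, with −0.19 ± 0.40 at 1500 µM and −0.22 ± 0.37 at 1500 against 200 µM, RNF25 with 0.07 ± 0.37 and 0.03 ± 0.33, and RNF14. RNF10 was lower in all 3 pairs in both of these comparisons, at 736, 1327 and 1631 CPM at 0 µM, 803, 1514 and 1457 CPM at 200 µM, and 667, 1248 and 1316 CPM at 1500 µM. RNF113A, a spliceosome component, had 179.8, 337 and 309 CPM at 0 µM, 291, 310.0 and 385 CPM at 200 µM, and 389, 294 and 393 CPM at 1500 µM. Its log2 fold change at 1500 µM was 0.38 ± 0.38 with mixed pairs, and that of its relative RNF113B was −0.02 ± 0.29. RNF34, linked to apoptosis, had 0.13 ± 0.52.

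25 RNF genes were in none of these role groups. Their median log2 fold change was −0.03 at 1500 µM, −0.04 at 200 µM and 0.001 at 1500 against 200 µM, and 0 passed. RNF222 had −0.25 ± 0.42 at 1500 against 200 µM with 3 lower pairs (−0.50, −0.05 and −0.11), and without replicate 1 of 200 µM it turned to 0.085. RNF44 had −0.23 ± 0.44 with 3 lower pairs (−0.16, −0.12 and −0.46), and without the same library it turned to 0.16. RNF175 had 245, 284 and 426 CPM at 0 µM, 369, 309 and 549.9 CPM at 200 µM, and 518, 344 and 333 CPM at 1500 µM, and was higher in all 3 pairs at 200 against 0 µM. RNF41, or Nrdp1, a ligase for the growth factor receptor ErbB3, had 1244, 1137 and 1023 CPM at 0 µM, 1026, 968 and 792 CPM at 200 µM, and 1024, 886 and 979.7 CPM at 1500 µM, lower in all 3 pairs in both comparisons with 0 µM. RNF41 was named after its values were seen, since 50.9% of its variation lay with the dose, next after RNF126. Its log2 fold change was −0.24 ± 0.27 at 1500 µM and −0.31 ± 0.27 at 200 µM, and the ranges at 0 and 1500 µM overlapped by under 1 CPM. RNF214 had 963, 582 and 1393 CPM at 0 µM, 1548, 756 and 1511 CPM at 200 µM, and 1312, 797 and 1304 CPM at 1500 µM, with a log2 fold change of 0.35 ± 0.43 at 200 against 0 µM.

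**Figure D4:**
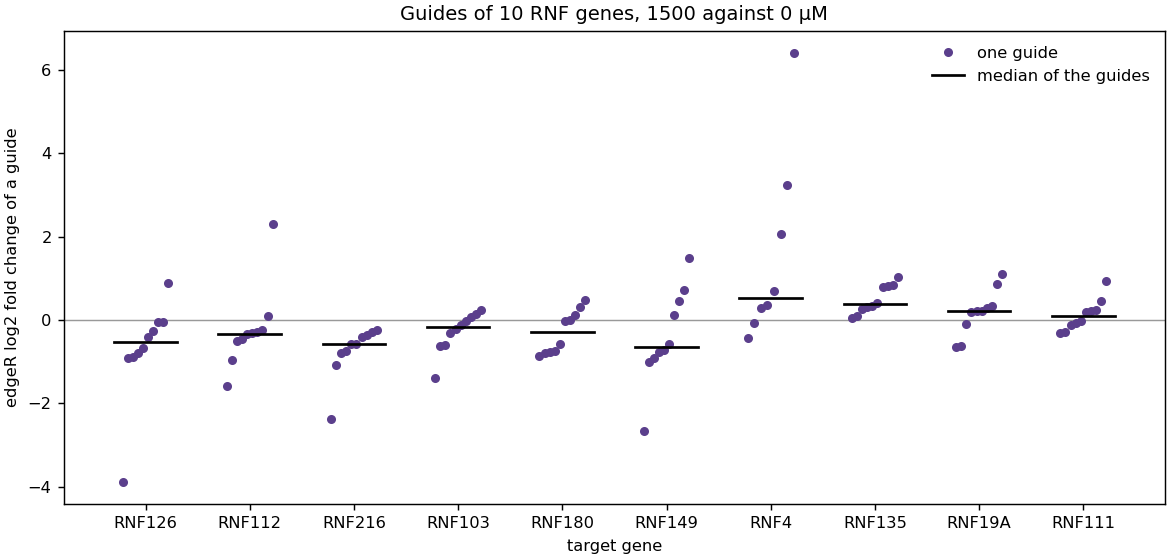
EdgeR's log2 fold change at 1500 against 0 µM (y axis) of each tested guide of 10 RNF genes (x axis), with a bar at the median of a gene's guides. The 10 guides of RNF135 lie above 0 and 9 of the 10 of RNF126 below, while guides with few counts, as in RNF4, spread over several log2 units.

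The single guides of lowest unadjusted p were ones with few counts. For 1500 against 0 µM these were RNF19B.4 among those higher, with 1, 0 and 0 counts at 0 µM, 0, 2 and 19 counts at 200 µM, and 43, 0 and 45 counts at 1500 µM, and RNF138.10 among those lower, with 49, 12 and 8 counts at 0 µM, 0, 26 and 0 counts at 200 µM, and 0, 0 and 0 counts at 1500 µM. At 200 against 0 µM RNF149.10 was lower, with 23, 9 and 19 counts at 0 µM, 0, 0 and 0 counts at 200 µM, and 6, 19 and 13 counts at 1500 µM, and RNF4.4 higher, with 0, 0 and 0 counts at 0 µM, 23, 0 and 51 counts at 200 µM, and 22, 14 and 0 counts at 1500 µM. At 1500 against 200 µM RNF141.7 was higher, with 32, 0 and 16 counts at 0 µM, 0, 0 and 0 counts at 200 µM, and 99, 9 and 19 counts at 1500 µM, and RNF130.5 lower, with 9, 0 and 0 counts at 0 µM, 12, 17 and 35 counts at 200 µM, and 0, 2 and 0 counts at 1500 µM. Each has a group wholly or largely at 0, where a fitted fold depends on the prior count, and none passed adjustment in edgeR. RNF130.5 reached the filter's 10 counts only in the 200 µM libraries. It was tested only because it was high there, so its low p is no support for a change. The gene sums were nearer 0. RNF141 had 0.18 ± 0.29 at 1500 against 200 µM, and RNF138 had −0.03 ± 0.46 at 1500 against 0 µM.

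The RNF guides made up 6.27% of all guides. In the 0 µM libraries they took 6.74, 6.68 and 6.76% of the counts. The 200 µM libraries gave 6.28, 6.68 and 6.55%, and the 1500 µM libraries 5.76, 5.32 and 6.34%. The 1500 µM shares lay below all 0 µM shares, a difference of −0.92 percentage points (exact permutation p = 0.1, two-sided, the smallest that 3 against 3 libraries allow). That test takes the libraries as unpaired. Over the 3 same-numbered pairs, as a replicate block, the exact sign-flip permutation p was 0.25, the smallest that 3 pairs allow. The difference was −0.22 points at 200 against 0 µM (exact permutation p = 0.2) and at 1500 against 200 µM −0.70 points (exact permutation p = 0.2). A single guide outside the family, UBE2A.7, held 6.07, 18.6 and 4.97% of the counts at 1500 µM. With that guide left out the RNF shares there were 6.13, 6.53 and 6.67%, and the difference from 0 µM was −0.32 points (exact permutation p = 0.1). With the most abundant guide of every gene left out the difference was −0.24 points (exact permutation p = 0.5), and the shares at 0 and 1500 µM overlapped.

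The E2 enzymes that serve RING ligases were taken as other genes of the pathway. Of 12, UBE2D1 to UBE2W, 0 passed in edgeR in any comparison, and their median log2 fold change was −0.05 at 1500 µM, −0.01 at 200 µM and −0.12 at 1500 against 200 µM. With the replicate block 1 of the 12 had an unadjusted p under 0.05 in edgeR at 1500 against 0 µM (background 6.62% of all genes). It was UBE2L3, which serves RING-between-RING ligases, at −0.38 ± 0.16 with the block. The count was 0 at 200 against 0 µM (background 5.37%) and 1 at 1500 against 200 µM (background 6.62%), UBE2D4, at 0.37 ± 0.10 with the block. Whether these counts differ from the background was not tested. DESeq2 with the block called UBE2D4 in that comparison (adjusted p = 0.0111), where it called 24 of the 1117 genes (2.15%), and none of the other E2 genes in any comparison, while edgeR with the block gave UBE2D4 an adjusted p of 0.447. UBE2N, which builds chains with UBE2V1 and UBE2V2, was scarce like RNF4, at 79.3 CPM at 0 µM. The 10 RNF genes left out by name had medians of −0.03, −0.11 and 0.10 and 0 passed.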

How the data were processed

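The authors deposited a table of raw counts per guide, with 10 guides a gene and 9 columns matched to the samples by title. The submitters' processing notes name cutadapt 1.18, MAGeCK 0.5.8 and the build hg19. No label says how reads were matched to guides. The labels' protocol names a PCR-free kit, and no molecular identifiers are stated.

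Counts were tested per guide, and summed per gene, with edgeR 4.0.16 (TMM scaling, robust quasi-likelihood fit, Benjamini-Hochberg adjustment over all features, threshold 0.05) on the 6 libraries of each pair of doses. Features needed at least 10 counts in at least 3 libraries. EdgeR's test reports no SE. The SEs given with its values are the absolute log2 fold change divided by the square root of the test's F statistic. DESeq2 1.42.0 (Wald test) was an alternative. Pair ratios are log2 ratios of CPM with a pseudocount of 1 CPM. The edgeR fits, with and without the replicate block, were tested on simulated data for 1500 against 0 µM. DESeq2 and the other comparisons were not simulated.

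Same-numbered libraries of different doses deviated together from their dose means (r = 0.66 to 0.78 over guides in 9 pairs of libraries). The numbers come from the titles and were taken to pair the libraries, from the data and not from a stated design. The paired fit uses the number as a block.

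The members and the role lists were chosen with earlier results of these data known. Named genes were every member past a test, the 5 highest and 5 lowest log2 fold changes at 1500 against 0 µM (3 each for the other comparisons) among genes that moved one way in all 3 pairs, the 5 highest and 5 lowest levels at 0 µM, the guide of lowest p in each direction, up to 4 examples a role list, and RNF138, RNF126, RNF114, RNF4, RNF149 and RNF141, which earlier results had named. RNF122, RNF41, RNF214 and the single E2 genes were named after their values were seen. 2 settings were changed after first results had been seen: the CPM scale, from TMM factors of guides to those of gene sums, which the gene fit uses and which brings the median gene nearer 0, and DESeq2's filtering threshold, from its default of 0.1 to 0.05. The report gives the effect of both. Results of 1 RNF gene are not reported here by name, and it stays in all counts and medians.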

Additional observations from a re-analysis of the deposited data

How the results depend on the processing

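No RNF gene was called in any comparison under any alternative run, and RNF guides were called in none but DESeq2 with the replicate block at 1500 against 200 µM (1 guide). The alternatives were another scaling, count filters, DESeq2, the replicate block, sums without a gene's top guide, and leaving out each library. With DESeq2's default filter, added after seeing the data, that fit called 0, 1 and 1 RNF guides. The blocked edgeR fit called 0 RNF genes and 0 RNF guides, so it changed no other RNF call.

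The median log2 fold change of the 70 genes is small, and its sign is not settled. At 1500 against 0 µM it was −0.15 with library totals alone and −0.066 to 0.022 on leaving out 1 library. At 200 against 0 µM it was −0.0088 with the replicate block, 0.024 with library totals alone, −0.016 without each gene's top guide, −0.14 as a median over guides, and −0.097 to 0.0092 on leaving out 1 library. At 1500 against 200 µM it was −0.16 with library totals alone, 0.016 as a median over guides, and −0.039 to 0.041 on leaving out 1 library. The cause was not tested.

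Leaving out 1 library also turned named genes. At 1500 against 0 µM RNF180 ran from −0.83 to 0.16, RNF19A from −0.13 to 0.59 and RNF216 from −1.22 to 0.42. At 200 against 0 µM RNF4 ran from −0.65 to 1.35. At 1500 against 200 µM RNF138 ran from −0.19 to 0.54, RNF180 from −0.80 to 0.29, RNF222 from −0.54 to 0.085 and RNF44 from −0.70 to 0.16. RNF135 and RNF126 kept their direction under each alternative at 1500 against 0 µM. Both were among the genes picked for moving one way in all 3 pairs, so a kept direction is not separate support. At 1500 against 0 µM leaving out 1 library gave 0.39 to 1.07 for RNF135 and −0.56 to −0.41 for RNF126. RNF112 ran from −0.65 to −0.27 there, and at 200 against 0 µM RNF217 ran from −0.70 to −0.22, RNF111 from 0.19 to 0.51 and RNF126 from −0.61 to −0.29. RNF4 rests on few counts, with 43 of its 90 guide counts at 0.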
